A study of Mus musculus with 36 samples.

Results

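Removal of β-catenin with Cas9 was followed in nephron progenitor cells (NPCs) held in high CHIR, in 4 of the 36 RNA-seq libraries of the study: 2 of NPCs given sgRNAs against *Ctnnb1*, the gene that encodes β-catenin, and 2 of NPCs given an sgRNA against GFP. All 4 came from mice of the Cas9-eGFP genotype, whose cells make Cas9 and GFP constitutively, so the control guide also directed Cas9 to a cut, in the GFP transgene. The progenitors were taken from kidneys of E16.5 embryos, rested overnight in low CHIR (1.25 µM), and transfected with guide RNA and an mRNA for the reporter mCherry. After another day in low CHIR they spent a day in high CHIR (5 µM), and mCherry-positive cells were sorted. The reporter marks cells that took up RNA and not cells in which *Ctnnb1* was cut, so a library may hold a mixture of cut and uncut cells. Animals were of Swiss Webster or C57BL/6 background with the sexes not separated. Neither the labels nor the methods give separate animals or cultures to the 2 replicates. The p-values therefore measure the spread between libraries, estimated over all 16 libraries of the fit and not from these 4 alone.

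CHIR (CHIR99021) inhibits GSK3β, a kinase that marks β-catenin for destruction. Stabilized β-catenin enters the nucleus and joins the Tcf/Lef family of DNA-binding proteins to raise Wnt target genes, while at the membrane it links cadherins to the cytoskeleton. In the kidney a low Wnt signal keeps NPCs dividing as progenitors, and a strong one starts them on the way to the renal vesicle, the first epithelial stage of the nephron. The comparison of the *Ctnnb1* guides with the GFP guide in high CHIR asks how much of the response to strong CHIR needs β-catenin.

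The study lists 4 guides against *Ctnnb1*, and whether they were used together is not stated. They are shown because their matches give where Cas9 would be expected to cut the coding sequence. The cuts themselves were not read here. Each is written 5′ to 3′, and the capitals mark the 3 bases that follow it on its own strand, which fit the NGG motif that Cas9 needs beside its target.
Ctnnb1_sgRNA1: atgagcagcgtcaaactgcgTGG
Ctnnb1_sgRNA3: agccaagcgctggacattagTGG
Ctnnb1_sgRNA5: agctacttgctcttgcgtgaAGG
Ctnnb1_sgRNA6: gagattatgcagtgtcgtgaTGG
In the GENCODE vM21 annotation of GRCm38, *Ctnnb1* (ENSMUSG00000006932) lies on the plus strand of chromosome 9, and all 4 guides have the sequence of the opposite strand. In the annotated transcript with 15 exons and 781 codons, Ctnnb1_sgRNA5 matches exon 3 at 120950729 to 120950748, with its expected cut at codon 75. Ctnnb1_sgRNA1 (120950987 to 120951006, codon 113) and Ctnnb1_sgRNA3 (120951011 to 120951030, codon 121) both match exon 4, although the study's names for them carry exon 2 and exon 3. Ctnnb1_sgRNA6 matches exon 6 at 120951618 to 120951637, with its expected cut at codon 257. All 4 expected cuts lie in coding exons within the first 32.8% of the coding sequence.

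*Ctnnb1* itself was lower with its guides. It had 1630 and 1270 normalized counts (reads divided by the library's size factor) in replicates 1 and 2 with the *Ctnnb1* guides and 2632 and 2701 with the GFP guide. Both libraries with *Ctnnb1* guides lay below both controls. The difference was -0.89 on the log2 scale (SE 0.23, adjusted p = 0.0429). Small insertions and deletions need not remove the mRNA, and the count takes in reads from every exon, so this value is no measure of how much protein was lost. The call was not made by edgeR (adjusted p = 0.0557) and was lost whichever of the 4 libraries was left out, with a difference from -1.07 without *Ctnnb1* replicate 1 to -0.71 without *Ctnnb1* replicate 2.

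The 4 libraries held between 21221963 and 27838106 reads on genes. The median gene differed by 0.20 on the log2 scale between the 2 GFP-guide libraries and by 0.26 between the 2 *Ctnnb1*-guide libraries, and 7.34% and 6.87% of genes differed more than 2-fold. Values were tested as log2(normalized count + 1) with limma over all 16 libraries of the table, 2 in each of 8 groups, for 16780 genes with a mean of at least 10. Adjusted p-values are limma's with Benjamini-Hochberg adjustment unless another tool is named, and a gene is said to have risen or fallen where the adjusted p was under 0.05 and the log2 difference at least 0.5. Differences on this scale understate the change of genes with low counts. With 2 libraries a group, the smallest two-sided p of an exact permutation test is 0.333, and calls on single genes therefore come from the fit over all genes.

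On removal of β-catenin in high CHIR 578 genes rose (3.44% of the genes tested) and 276 fell (1.64%). These shares are the background for each count of list members below. The median difference was 1.75 among the genes that rose and -1.15 among those that fell, on the log2 scale. At least 2-fold changes made up 470 of the increases and 161 of the decreases, and changes of at least 4 on the log2 scale 60 and 1. Of the genes that rose, 111 had a mean under 10 normalized counts in the controls and 15 had no read in either control library, whereas 8 of the genes that fell had a mean under 10 with the *Ctnnb1* guides. edgeR called 508 higher and 244 lower, and DESeq2 called 849 higher and 534 lower. Leaving out 1 library lowered both counts by more than 1.5 times. Without *Ctnnb1* replicate 1 or 2 there were 304 and 176 genes higher and 84 and 28 lower, and without GFP replicate 1 or 2 there were 355 and 203 higher and 66 and 38 lower. Of 101 called genes drawn from the lists and the rule for largest changes, 65, 44, 63 and 48 kept their call without these libraries in the same order, and none reversed. Of 36 further genes of the lists that limma did not call, edgeR called 4 (*Emx2*, *Ovol1*, *Itga3* and *Itgav*) and DESeq2 called 16, so "not called" below refers to limma unless another tool is named.

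**Figure D1:**
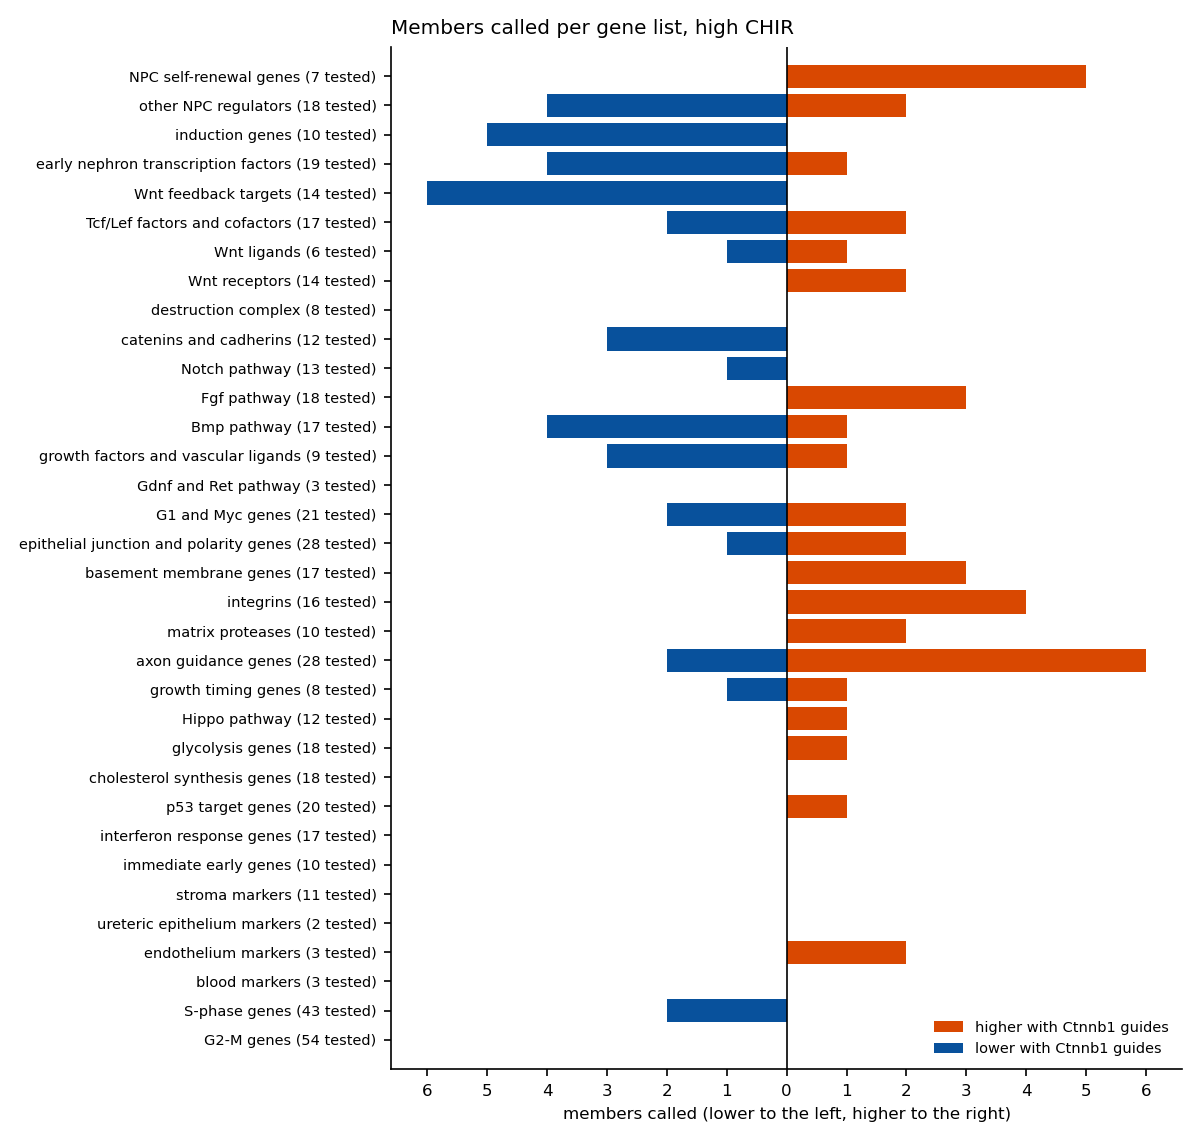
Number of genes called in each list on removal of β-catenin in high CHIR. Bars to the right count genes that rose and bars to the left genes that fell, with the number of genes tested beside each list's name. Over all genes tested 3.44% rose and 1.64% fell. The self-renewal list has only bars to the right (5 of 7 tested), and the induction genes (5 of 10) and Wnt feedback targets (6 of 14) only bars to the left.

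Genes of the uninduced progenitor rose. Of 7 self-renewal genes tested, 5 rose and none fell, with a median difference of 3.77 against 0.00 over all genes tested. The paper names *Cited1*, *Meox2*, *Osr1* and *Tmem100* among the genes most raised on removal in high CHIR. That ranking used these libraries and those of Cre removal, so the count and median of this list are no independent result. *Cited1*, a transcriptional coregulator found in the uninduced cap of progenitors, had 37.5 and 94.8 normalized counts with the GFP guide and 1956 and 2261 with the *Ctnnb1* guides. The 2 groups were far apart, with the lowest *Ctnnb1*-guide value above the highest control. The difference was 5.12 (SE 0.44, adjusted p = 1.84e-05). *Meox2*, a homeobox factor, had 79.4 and 162 in the controls and 2215 and 2792 after removal (4.44, SE 0.26, adjusted p = 8.3e-07). *Tmem100*, a small membrane protein, had 156 and 129 against 2566 and 2255 (4.07, SE 0.31, adjusted p = 5.34e-06). *Osr1*, a zinc-finger factor of the early kidney mesenchyme, went from 71.9 and 138 to 1063 and 1760 (3.77, SE 0.33, adjusted p = 1.84e-05). In each of these genes both libraries with *Ctnnb1* guides lay above both controls, and the call was kept whichever library was left out.

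*Meox1* behaved less evenly. This relative of *Meox2* had 12.0 and 9.57 normalized counts in the controls and 147 and 35.2 after removal. The groups did not overlap, but replicate 1 was far above replicate 2 among the *Ctnnb1*-guide libraries. Its difference of 2.65 (SE 0.67, adjusted p = 0.0375) was kept only without *Ctnnb1* replicate 2 and was 1.63 without replicate 1. *Six2*, the homeobox factor that holds NPCs in the progenitor state, had 1097 and 1336 in the controls and 1833 and 1473 after removal. The groups did not overlap, yet the difference of 0.44 (SE 0.34) had an adjusted p of 0.523. *Eya1*, a coactivator that works with homeobox factors such as *Six2*, had 1871 and 2140 against 2577 and 3007 (0.48, SE 0.21, adjusted p = 0.238).

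**Figure D2:**
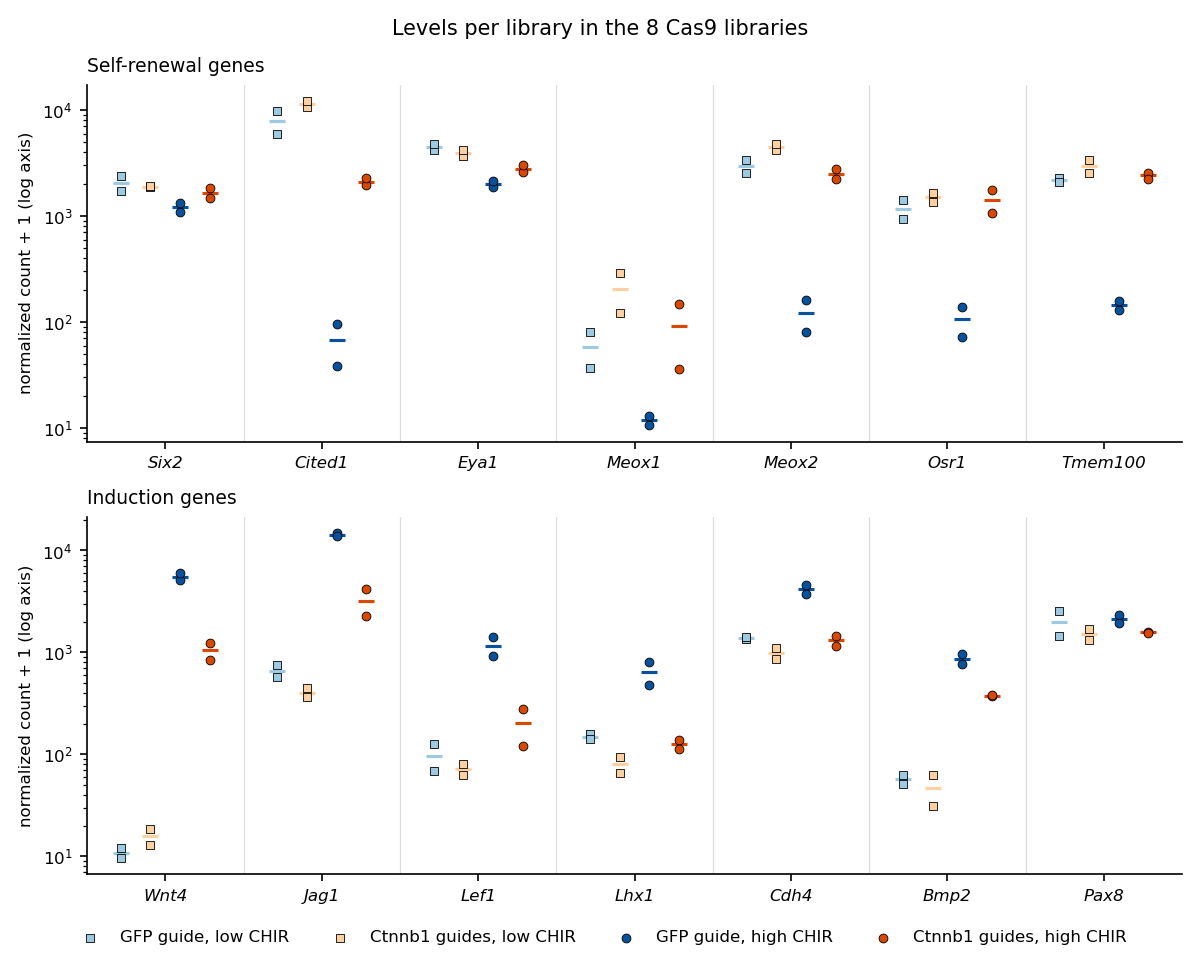
Normalized count + 1 on a log axis in each of the 8 Cas9 libraries, for 7 self-renewal genes (top) and 7 of the induction genes (bottom). Squares are libraries in low CHIR and circles libraries in high CHIR, light or dark blue for the GFP guide and light or dark orange for the *Ctnnb1* guides, and short lines are means of 2 libraries. In high CHIR *Cited1*, *Meox2*, *Osr1* and *Tmem100* were more than 10-fold higher with the *Ctnnb1* guides, and *Wnt4*, *Jag1*, *Lef1* and *Lhx1* were lower.

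Other regulators of the progenitor did not move as one. Of 18 tested, 2 rose and 4 fell, with a median difference of -0.36. *Pax2*, a paired-box factor needed for nephrons to form, had 1039 and 1041 normalized counts in the controls and 284 and 283 after removal. The replicates of each group were nearly equal and the groups well apart, with a difference of -1.87 (SE 0.28, adjusted p = 0.00147). *Cited2*, a coregulator related to *Cited1* that changed in the opposite direction, had 2087 and 2697 against 814 and 731 (-1.62, adjusted p = 0.00356). *Sall1*, a zinc-finger factor of the cap mesenchyme, had a log2 difference of -0.97 (adjusted p = 0.031) and *Six4* one of -1.31 (adjusted p = 0.0201). Both calls were lost whichever library was left out, and that of *Cited2* without *Ctnnb1* replicate 2 (-1.54) or GFP replicate 2 (-1.44). *Crym*, which encodes a thyroid hormone-binding protein, rose from 524 and 527 to 5360 and 5337 (3.34, SE 0.60, adjusted p = 0.00558), and without *Ctnnb1* replicate 2 or GFP replicate 2 its difference of 3.35 was not called. *Wt1*, another factor of the progenitor, had a difference of 0.45 (adjusted p = 0.407).

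Genes of induction fell. Of 10 tested, 5 fell and none rose, with a median difference of -1.43. The paper names *Wnt4* and *Jag1* among the genes most lowered on removal in high CHIR. Its ranking used these libraries and those of Cre removal, so this count and median are no independent result. *Wnt4*, the Wnt ligand that drives NPCs into epithelium, had 5135 and 5973 normalized counts with the GFP guide and 1240 and 847 with the *Ctnnb1* guides. *Jag1*, a Notch ligand of the renal vesicle, had 14833 and 13848 against 4151 and 2282. *Lef1*, the Tcf/Lef member that marks induced NPCs, had 1407 and 913 against 280 and 120. All 3 were lower in both libraries after removal than in either control. The differences were -2.43 for *Wnt4* (SE 0.44, adjusted p = 0.00565), -2.22 for *Jag1* (SE 0.28, adjusted p = 0.000435) and -2.62 for *Lef1* (SE 0.45, adjusted p = 0.00435). *Jag1* was called whichever library was left out, whereas *Wnt4* was not called without *Ctnnb1* replicate 2 (-2.16) or GFP replicate 2 (-2.32), and *Lef1* not without *Ctnnb1* replicate 2 (-2.01) or GFP replicate 1 (-2.31).

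*Lhx1*, a LIM-homeobox factor of the renal vesicle, had 803 and 477 normalized counts in the controls and 137 and 113 after removal (-2.31, SE 0.44, adjusted p = 0.00771). *Cdh4* (R-cadherin), an adhesion protein of the induced cells, had 3763 and 4612 against 1164 and 1459 (-1.68, SE 0.23, adjusted p = 0.000786). Neither gene's groups overlapped. *Bmp2* had 766 and 965 against 371 and 379, which is a difference of -1.19 with an adjusted p of 0.065 with limma and 0.00362 with DESeq2. *Pax8*, a partner of *Pax2* at induction, had 2346 and 1947 against 1600 and 1550 (-0.44, adjusted p = 0.501). Over the list, 5, 2, 3 and 4 genes fell without *Ctnnb1* replicate 1 or 2 and GFP replicate 1 or 2.

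Of 19 transcription factors of the early nephron tested, 4 fell and 1 rose (median difference -1.0). The paper predicts *Sox11*, *Dach1*, *Cux2*, *Id2*, *Emx2* and *Ovol1* to be β-catenin targets. It drew its targets from genes lowered in these libraries and those of Cre removal, so this count and median are no independent result. *Sox11* was the most abundant, with 62827 and 61696 normalized counts in the controls and 22396 and 16962 after removal (-1.68, SE 0.27, adjusted p = 0.00257). *Dach1*, a corepressor, fell from 943 and 986 to 278 and 209 (-2.0, SE 0.32, adjusted p = 0.0025), and *Cux2*, a homeobox factor, from 507 and 518 to 146 and 128 (-1.90, SE 0.21, adjusted p = 0.000114). *Id2*, an inhibitor of bHLH factors and a target of Bmp signals, had 38815 and 41403 against 20289 and 17909 (-1.07, adjusted p = 0.0132). *Sox9*, which in the kidney marks the ureteric tips and cells after injury, rose instead, from 262 and 400 to 1998 and 1547 (2.44, SE 0.49, adjusted p = 0.0116). *Emx2* and *Ovol1* were well below the controls in both libraries (-2.76 and -2.27) but had adjusted p-values of 0.104 and 0.0616 with limma. Both were called by edgeR (adjusted p = 0.0433 and 0.0416) and DESeq2 (0.00016 and 0.000698), which called 6 and 7 genes of the list lower. Between 1 and 3 members of the list fell when 1 library was left out, with 1 without *Ctnnb1* replicate 2, and *Sox9* was called only without GFP replicate 2.

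The feedback genes of the Wnt pathway, which the pathway raises and most of which damp it, fell in part. Of 14 tested, 6 fell and none rose, with a median difference of -1.29. *Lef1* and *Tcf7* are predicted targets in the paper, drawn from genes lowered in these libraries and those of Cre removal. Their decreases are no independent result. *Znrf3*, a ubiquitin ligase that removes Frizzled receptors from the surface, had 4094 and 4832 normalized counts in the controls and 2163 and 1960 after removal (-1.11, SE 0.16, adjusted p = 0.00118). *Sp5*, a zinc-finger repressor, had 36.0 and 40.2 against 0.92 and 2.64. *Notum*, a secreted enzyme that inactivates Wnt ligands, had 35.2 and 47.9 against 5.53 and 4.40. Both of these low genes were near 0 after removal, with differences of -3.88 (SE 0.94, adjusted p = 0.0318) and -2.83 (SE 0.66, adjusted p = 0.0257). *Tnfrsf19*, a receptor raised by Wnt signals, fell by 1.42 (adjusted p = 0.0249) and *Tcf7*, a Tcf/Lef member, by 1.39 (adjusted p = 0.0394), and *Lef1*, given above, is the sixth. *Axin2*, the feedback inhibitor most often used as a readout of the pathway, had 191 and 187 against 107 and 73.9. Its groups did not overlap, but its difference of -1.08 (SE 0.42) had an adjusted p of 0.167. *Nkd1* (-1.35, adjusted p = 0.122) and *Nkd2* (-1.43, adjusted p = 0.096) were not called by limma or edgeR but were by DESeq2 (adjusted p = 0.0256 and 0.0212), which called 8 of the 14 lower. Without *Ctnnb1* replicate 1 or 2 and GFP replicate 1 or 2 the number that fell was 2, 1, 1 and 2 of 14.

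The DNA-binding partners of β-catenin moved in opposite directions. *Tcf7* and *Lef1*, which mostly activate, fell, and *Tcf7l1*, which mostly represses, rose from 357 and 402 normalized counts to 1004 and 1187 (1.53, SE 0.24, adjusted p = 0.00198). *Tcf7l1* was called and *Tcf7* was not called whichever library was left out. *Tcf7l2*, the fourth member, had 1601 and 1319 against 2190 and 2396 (0.66, adjusted p = 0.0731, and 0.032 with DESeq2). *Bcl9l*, a coactivator that binds β-catenin, rose from 468 and 403 to 952 and 961 (1.14, adjusted p = 0.00642), but not without *Ctnnb1* replicate 2 (1.13) or GFP replicate 2 (1.03). Among 17 such factors and cofactors tested, 2 rose and 2 fell (median -0.06).

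Of 6 Wnt ligands tested, *Wnt4* fell and *Wnt2* rose, from 1.5 and 0.00 to 33.2 and 103 normalized counts. That is 2 reads in both controls against 153 with the *Ctnnb1* guides, a ratio of 81.9 (95% exact interval 22.3 to 682, which covers counting error only). Of 14 receptors 2 rose and none fell, whereas DESeq2 called 1 higher and 2 lower. *Fzd4*, a Frizzled receptor, had 369 and 329 against 1444 and 1408 (2.03, SE 0.28, adjusted p = 0.000888). *Fzd8* had 13.5 and 6.70 against 39.6 and 38.7 (1.93, SE 0.51, adjusted p = 0.0481) and was called in no fit with a library left out. The scaffolds and kinases that mark β-catenin for destruction gave no call among 8 tested with limma, edgeR or DESeq2, and 1 gene (*Apc2*, 2.01) had an unadjusted p under 0.05.

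Of 12 catenins and cadherins tested, *Ctnnb1*, *Cdh3* and *Cdh4* fell and none rose. *Cdh3* (P-cadherin) had 1012 and 887 normalized counts in the controls and 318 and 391 after removal (-1.42, adjusted p = 0.0236), and it was called in no fit with a library left out. *Cdh2* (N-cadherin), the main cadherin of mesenchyme, had 2155 and 2535 against 3047 and 5063 (0.75, adjusted p = 0.0875, and 0.0385 with DESeq2). *Jup*, or plakoglobin, the catenin nearest to β-catenin in sequence, had 1514 and 1280 against 1708 and 1606 (0.25, adjusted p = 0.689).

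Promoter sequences were searched because Tcf/Lef proteins bind a short motif and 6 of the 14 feedback genes fell. The letters CTTTGAA and CTTTGAT, on either strand, were looked for from 250 bases before to 50 bases after each RefSeq start site (GRCm38.p6). They occurred in 8.65% of the 32851 promoters in the table and in 6.91% of the 10502 genes tested that had a promoter. They occurred in 10.1% of the genes that fell (19 of 188) and in 7.38% of those that rose (31 of 420). Of the 34 named genes that fell and had a promoter 7 held a match. The stretches around the match are shown for 2 of the Wnt feedback genes and for *St8sia6*, a sialyltransferase gene among the largest decreases. Each has 30 bases on either side, reads 5′ to 3′ on the gene's strand, and has the match in capitals.
Sp5: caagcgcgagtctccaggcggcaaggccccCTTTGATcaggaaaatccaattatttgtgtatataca
Tnfrsf19: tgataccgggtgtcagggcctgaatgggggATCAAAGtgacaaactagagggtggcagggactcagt
St8sia6: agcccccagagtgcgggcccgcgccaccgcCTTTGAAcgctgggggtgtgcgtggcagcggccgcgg
The stretch of *Sp5* is chr2:70474789-70474855 on the plus strand, with the match beginning 104 bases before the start site. That of *Tnfrsf19* is chr14:61038153-61038219 on the minus strand (202 bases before), and that of *St8sia6* is chr2:13793546-13793612 on the minus strand (62 bases before). In *Tnfrsf19* the capitals are the reverse complement of CTTTGAT. A match describes the letters in this window and not a bound site.

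In the Fgf pathway, which NPCs need to survive and divide, 3 of 18 genes tested rose and none fell (median 0.14). *Fgf1* (ENSMUSG00000036585, chromosome 18, 38838673 to 38929472) showed one of the largest changes of all. This ligand had 16.5 and 0.00 normalized counts in the controls and 2246 and 2213 after removal. Both controls were near 0 and both *Ctnnb1*-guide libraries high, and the difference was 9.06 (SE 0.87, adjusted p = 3.97e-05). It was 6.99 without GFP replicate 2 and 11.12 without GFP replicate 1, where the remaining control had no read and the value rests on the pseudocount, and it was called in both. *Etv1*, a transcription factor downstream of Fgf receptors, rose from 955 and 949 to 2661 and 2950 (1.56, SE 0.15, adjusted p = 4.33e-05). *Spry4*, a feedback inhibitor, had 1198 and 709 against 1909 and 1864 (1.03, adjusted p = 0.0277), and without GFP replicate 2 its difference was 0.66 and not called. *Fgf9*, a ligand made by the progenitors, had 7448 and 6899 against 2715 and 1811 (-1.69, adjusted p = 0.0793). *Fgfr2* (-1.09, adjusted p = 0.0592, and 0.0119 with DESeq2), *Fgfr1* (0.53, adjusted p = 0.19) and *Dusp6*, a phosphatase that reports Fgf signaling (-0.51, adjusted p = 0.161), were not called by limma.

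Among 17 genes of the Bmp pathway tested, 1 rose and 4 fell. The paper names *Bmp7*, *Bmpr1b* and *Id2* as dependent on β-catenin in high CHIR. It worked from these libraries and those of Cre removal, so this count is no independent result. *Bmper*, a secreted protein that binds Bmps, had 497 and 699 normalized counts in the controls and 7455 and 13500 after removal. The groups were more than 10-fold apart (4.09, SE 0.33, adjusted p = 1.08e-05), and the call was kept whichever library was left out. *Bmp7*, the Bmp that progenitors make for their own upkeep, had 510 and 382 against 116 and 72.2 (-2.26, SE 0.57, adjusted p = 0.0393). *Bmpr1b*, a Bmp receptor, had 347 and 368 against 119 and 148 (-1.42, adjusted p = 0.0182), and *Id4* had 581 and 533 against 146 and 85.4 (-2.30, adjusted p = 0.0192). With *Id2* these made the 4 decreases, of which 1 (*Id4*) was called without *Ctnnb1* replicate 1 and none without *Ctnnb1* replicate 2, GFP replicate 1 or GFP replicate 2.

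Of 9 growth factors and vascular ligands tested, *Vegfc* (-2.69, adjusted p = 0.00435), *Pdgfa* (-1.73, adjusted p = 0.00435) and *Tgfa* (-1.20, adjusted p = 0.0239) fell. The paper names *Vegfc* and *Tgfa* as dependent on β-catenin in high CHIR, also from these libraries, so their decreases are no independent result. *Vegfc*, a lymphatic growth factor, had 283 and 268 normalized counts against 55.3 and 31.7. Without *Ctnnb1* replicate 1 or 2 and GFP replicate 1 or 2 the number that fell was 2, 1, 2 and 1. *Angpt2*, a ligand of the vascular receptor Tie2, rose from 15.0 and 16.3 to 155 and 143 (3.17, SE 0.34, adjusted p = 0.000105). Of 13 genes of the Notch pathway tested *Jag1* was the 1 called, and the median was 0.50. Of 8 genes that mark the developmental timing of growth, *Igf2bp3*, an RNA-binding protein of fetal cells, fell by 0.96 (adjusted p = 0.00778, called only without GFP replicate 1 when a library was left out) and the growth factor *Igf1* rose. *Igf1* had 2.25 and 0.00 against 170 and 44.9, which is 3 reads against 236 (ratio 84.2, 95% exact interval 28.5 to 411, counting error only), and it was not called without *Ctnnb1* replicate 1 (4.67) or GFP replicate 2 (4.77).

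Genes for the matrix around the cell and for its receptors were called in part. Of 16 integrins and integrin ligands tested, 4 rose and none fell with limma (median 0.76), while edgeR called 3 higher and 1 lower and DESeq2 6 higher and 2 lower. *Itga6*, the laminin-binding integrin α6, had 218 and 165 normalized counts in the controls and 645 and 643 after removal (1.76, SE 0.29, adjusted p = 0.00356). *Itgb4*, its epithelial partner, had 9.74 and 8.61 against 40.5 and 33.4 (1.90, adjusted p = 0.0353). The fibronectin receptors *Itga4* (1.57, adjusted p = 0.0359) and *Itga5* (0.76, adjusted p = 0.0457) also rose. *Itga8*, the integrin of NPCs that receives nephronectin from the ureteric bud, had 4680 and 4326 against 2466 and 2424 (-0.88, adjusted p = 0.129 with limma and 0.0259 with DESeq2). *Itga3*, a laminin-binding integrin of podocytes, had 558 and 431 against 262 and 258, and edgeR (adjusted p = 0.0381) and DESeq2 (0.00619) called it lower. Without GFP replicate 2 limma called none of the 16 higher, and without *Ctnnb1* replicate 1 or 2 or GFP replicate 1 it called 1, *Itga6*.

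Of 17 genes of the basement membrane, 3 rose and none fell (median 0.34). *Nid2* (nidogen-2), which links laminin to collagen, had 1549 and 1836 normalized counts against 6190 and 10167 (2.23, SE 0.24, adjusted p = 0.000114). *Nid1* had 1389 and 420 against 2815 and 2429, so the 2 controls lay far apart, and its difference was 1.77 (adjusted p = 0.0348) but 0.91 without GFP replicate 2. *Lamb2*, a laminin chain, rose by 1.52 on the log2 scale (adjusted p = 0.00515). Without *Ctnnb1* replicate 2 or GFP replicate 2 *Nid2* was the only one called. Among 10 matrix proteases and inhibitors, *Mmp16* (1.27, adjusted p = 0.00488) and *Timp2* (1.19, adjusted p = 0.00905) rose, and neither was called without GFP replicate 2. *Mmp2* had 5099 and 4410 against 7762 and 8454 (0.77, adjusted p = 0.055, and 0.0116 with DESeq2).

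Of 28 genes of axon guidance, ligands and receptors that also steer cells outside the nervous system, 6 rose and 2 fell. *Robo2*, the Slit receptor that sets where the ureteric bud forms, had 505 and 464 normalized counts in the controls and 2117 and 2950 after removal (2.37, SE 0.23, adjusted p = 3.97e-05). *Plxnd1*, a semaphorin receptor, had 207 and 135 against 968 and 984 (2.54, SE 0.26, adjusted p = 5.93e-05), and *Efnb1*, an ephrin, had 304 and 278 against 965 and 1111 (1.83, SE 0.22, adjusted p = 0.000241). In these 3 genes the groups were apart and the calls were kept whichever library was left out. *Nrp1*, a coreceptor of semaphorins and Vegf, rose by 2.15 (adjusted p = 0.0111), *Sema3d* by 2.76 (adjusted p = 0.0315) and *Ephb2* by 1.18 (adjusted p = 0.0153). *Epha4*, an ephrin receptor, fell from 1226 and 939 to 306 and 269 (-1.90, adjusted p = 0.00444), and *Sema3c* fell by 1.24 (adjusted p = 0.0168). Between 3 and 4 of the 28 rose and none or 1 fell when 1 library was left out, with none that fell without *Ctnnb1* replicate 2.

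Among 28 epithelial genes of junctions and polarity tested 2 rose and 1 fell (median -0.35), where 3.44% and 1.64% of all genes tested did so. *Krt19*, a keratin, had 19.5 and 47.9 normalized counts against 106 and 258 (2.40, adjusted p = 0.0163), and *Cldn5*, a tight-junction protein that is best known from endothelium, had 3.0 and 1.91 against 68.1 and 53.7 (4.17, SE 0.60, adjusted p = 0.00123). *Dlg1*, a polarity scaffold, fell by 0.78 (adjusted p = 0.0236). When a library was left out *Dlg1* was called only without *Ctnnb1* replicate 1, *Krt19* only without *Ctnnb1* replicate 1 or GFP replicate 2, and *Cldn5* in every case.

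Of 21 genes of the G1 phase and the Myc network, 2 rose and 2 fell. *Ccnd2*, the D-type cyclin with the highest counts, had 40476 and 39609 normalized counts in the controls and 15356 and 12642 after removal (-1.52, SE 0.20, adjusted p = 0.000602). *Ccnd1*, the relative often named as a Wnt target, had 678 and 616 against 626 and 627 (-0.04, SE 0.25, adjusted p = 0.945). *Myc* and *Mycn* went opposite ways. *Myc* had 815 and 498 against 1347 and 1778 (1.28, adjusted p = 0.0254), and *Mycn* had 997 and 1341 against 517 and 525 (-1.15, adjusted p = 0.0417). *Mxd4*, an antagonist of Myc, rose by 1.5 (adjusted p = 0.0155). *Ccnd2* was called whichever library was left out, *Mycn* in no such fit, and *Myc* only without GFP replicate 1.

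Of 43 S-phase genes tested *Rrm2*, a subunit of ribonucleotide reductase (-0.74, adjusted p = 0.0489), and *Usp1*, a deubiquitinase of DNA repair (-0.80, adjusted p = 0.0439), fell, and 37 of the 43 had a negative difference (median -0.27). Neither was called in any fit with a library left out. Over all genes tested, 8393 of 16780 had a negative difference. Of the 43 S-phase genes DESeq2 called 4 lower and none higher. In 11 of them a limma difference of at least 0.5 was negative with an unadjusted p under 0.05, and in none positive. Of 54 G2-M genes none was called by limma or edgeR, 5 had an unadjusted p under 0.05 with a difference of at least 0.5, and DESeq2 called 2 higher and 1 lower (median 0.00).

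Other lists gave single calls or none. *Hk1*, a hexokinase, was the 1 of 18 glycolysis genes called (1.43, SE 0.21, adjusted p = 0.00134), although 16 of the 18 had a positive difference (median 0.51). *Ccn1*, a secreted target of the Hippo pathway, was the 1 of 12 Hippo genes (1.74, adjusted p = 0.0407), and *Fas*, a death receptor, the 1 of 20 p53 targets (1.51, adjusted p = 0.0284). *Hk1* was called whichever library was left out, *Ccn1* in no such fit and *Fas* only without GFP replicate 1. Among 18 genes of cholesterol synthesis and 17 of the interferon response limma and edgeR called none, with 2 and 1 at an unadjusted p under 0.05, and DESeq2 called 1 of cholesterol synthesis. None of 10 immediate early genes was called by limma, edgeR or DESeq2 or had an unadjusted p under 0.05. The 3 genes tested of the Gdnf and Ret pathway gave no call with any of these tools, with 1 at an unadjusted p under 0.05, and *Gdnf* itself had a difference of -0.99 (adjusted p = 0.417).

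Beyond the lists, the largest increases were of genes close to silent in the controls of high CHIR. Some of the largest increases, such as *Fgf1* and *Olfml2a*, were of genes expressed with the GFP guide in low CHIR, as given below. *Fam19a4* (ENSMUSG00000046500, chromosome 6, 96831203 to 97060413), a secreted chemokine-like protein also named *Tafa4*, had no read in either control and 805 and 696 normalized counts after removal. Against a floor of 3 reads in each control library it was at least 293-fold higher. *Slc26a7*, an anion transporter, had 1.5 and 0.00 against 235 and 580, which is 2 reads against 914 (ratio 489, 95% exact interval 135 to 4050, counting error only). Both genes were close to absent with the GFP guide and well expressed with the *Ctnnb1* guides. *Olfml2a*, an olfactomedin-like secreted protein, had 1.5 and 6.70 against 714 and 1330 (7.80, SE 0.56, adjusted p = 4.12e-06). *Rgs4*, a brake on G protein signaling, had 6.0 and 5.74 against 704 and 1110 (7.01, SE 0.48, adjusted p = 3.14e-06). *Nxph1*, a secreted ligand of neurexins, had 3.0 and 1.91 against 215 and 525 (6.63, SE 0.55, adjusted p = 1.1e-05). The groups lay far apart in each, but groups that do not overlap were a condition for naming these genes.

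*Ch25h*, which makes 25-hydroxycholesterol, had 46.5 and 28.7 normalized counts in the controls and 1953 and 2409 after removal (5.85, SE 0.47, adjusted p = 1.01e-05). *Tgtp1*, a GTPase known from interferon responses, had 5.24 and 5.74 against 342 and 251 (5.50, SE 0.32, adjusted p = 8.3e-07), while no gene of the interferon list was called. *Dkk2*, a secreted modulator of Wnt receptors, had 8.99 and 29.7 against 546 and 1047 (5.43, SE 0.54, adjusted p = 5.43e-05). These 3 genes kept their call whichever library was left out. *Upp1*, a uridine phosphorylase (5.51, adjusted p = 1.93e-05), and *Pla1a*, a phospholipase (5.51, adjusted p = 0.00055), completed the 12 largest increases with *Fgf1* and *Igf1*.

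The decreases were smaller, and most of the genes kept some expression. *Pou3f1* (ENSMUSG00000090125, chromosome 4, 124656807 to 124660655), a POU-domain transcription factor, had 114 and 113 normalized counts in the controls and 8.29 and 4.40 after removal. It showed the largest decrease of the genes that could be named (-4.01, SE 0.69, adjusted p = 0.004), and was not called without *Ctnnb1* replicate 2 (-3.62) or GFP replicate 2 (-4.02). *Lrp4* (ENSMUSG00000027253, chromosome 2, 91457511 to 91513779), a receptor that also binds secreted Wnt antagonists, was the most abundant of the 12, with 8017 and 7340 against 1357 and 1033 (-2.69, SE 0.23, adjusted p = 1.24e-05). *St8sia6* had 2075 and 1557 against 399 and 252 (-2.50, SE 0.33, adjusted p = 0.000618). *Lrp4* and *St8sia6* kept their call whichever library was left out.

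*Crabp2*, which carries retinoic acid to its receptors, had 1737 and 2256 normalized counts in the controls and 319 and 289 after removal (-2.70, SE 0.62, adjusted p = 0.0246). *Plet1*, a surface protein of epithelial progenitors, had 4399 and 2313 against 787 and 324 (-2.66, adjusted p = 0.0267). *Htr3a*, a serotonin-gated ion channel, had 257 and 277 against 47.0 and 39.6 (-2.60, SE 0.45, adjusted p = 0.00445). Groups that do not overlap were a condition for a place among the 12, so their separation is no added support. *Crabp2* was called in no fit with a library left out, and *Plet1* was called only without *Ctnnb1* replicate 1. *Htr3a* was not called without *Ctnnb1* replicate 2 (-2.48) or GFP replicate 2 (-2.55). *Psd2* (-3.32, adjusted p = 0.0157), *Rnase12* (-3.20, adjusted p = 0.0257), *Ctxn3* (-2.80, adjusted p = 0.0204) and *Cthrc1*, a secreted glycoprotein that binds Wnt receptors (-2.51, adjusted p = 0.0267), complete the 12 with *Vegfc* and *Lef1*. When a library was left out *Rnase12* and *Ctxn3* were called only without *Ctnnb1* replicate 1, and *Psd2* and *Cthrc1* in no case.

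**Figure D3:**
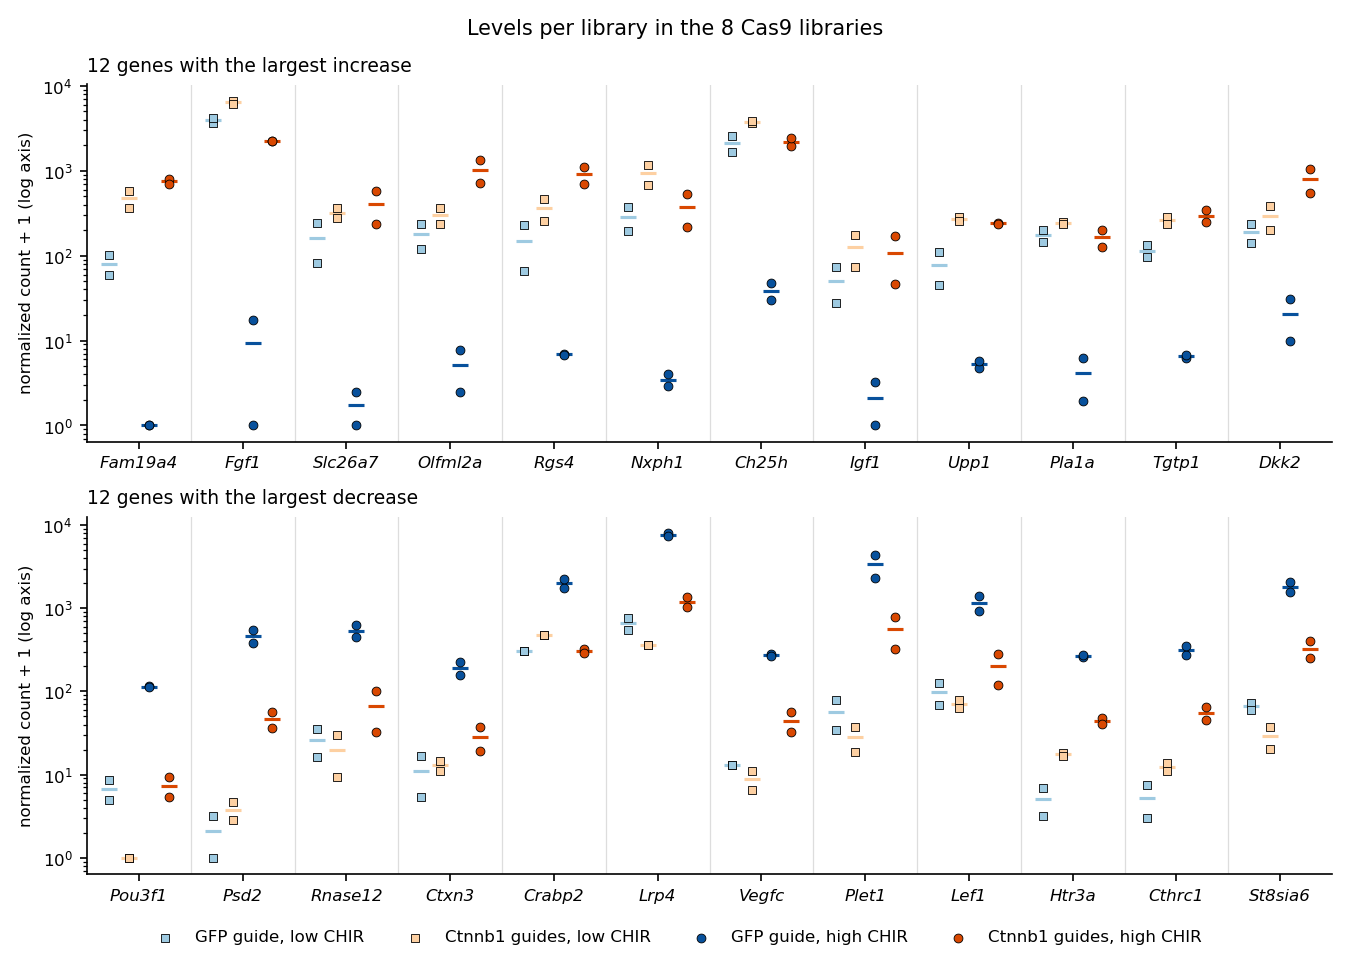
Normalized count + 1 on a log axis in each of the 8 Cas9 libraries for the 12 largest increases (top) and the 12 largest decreases (bottom) on removal of β-catenin in high CHIR. Squares are low CHIR and circles high CHIR, blue the GFP guide and orange the *Ctnnb1* guides, and short lines are means of 2 libraries. In the top row the GFP-guide libraries in high CHIR lie lowest, and in the bottom row they lie highest.

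The same guides were also compared in low CHIR, in 4 other libraries, whose replicates lay further apart than those in high CHIR. The median gene differed by 0.30 on the log2 scale between the GFP-guide libraries and by 0.31 between the *Ctnnb1*-guide libraries. More than 2-fold differences were seen in 12.1% and 10.8% of genes. On removal in low CHIR 6 genes rose (0.0358%) and 3 fell (0.0179%). These few calls depended on the processing. None was made in either direction by edgeR (where 198 positive and 186 negative differences had an unadjusted p under 0.05), with a pseudocount of 0.5, with TMM scaling or with the 8 Cas9 libraries alone, DESeq2 called 8 and 4, and at most 1 gene was left each way without any 1 of the Cas9 libraries. The difference between the 2 effects was then tested gene by gene. For 79 genes (0.471%) the effect was more positive in high CHIR, and for 8 (0.0477%) it was more negative. Of the 79, 78 rose in high CHIR, and all 8 fell there. The effect in high CHIR is part of the difference tested, so this overlap is largely built in. Among the 578 genes that rose in high CHIR 501 (86.7%, against 51.1% of all genes tested) also had a positive difference in low CHIR, with a median of 0.32. Among the 276 that fell 233 (84.4%, against 48.9%) had a negative one, with a median of -0.25. Without 1 of the 8 Cas9 libraries the number of genes called for the difference fell from 87 to between 29 (without *Ctnnb1* replicate 2, high CHIR) and 61 (without GFP replicate 1, high CHIR).

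*Fgf1* led the genes whose effect was more positive in high CHIR. It had 3696 and 4213 normalized counts with the GFP guide in low CHIR and 6682 and 6077 with the *Ctnnb1* guides. All 4 were high, unlike the controls in high CHIR, and the effect differed by 8.37 on the log2 scale (SE 1.22, adjusted p = 0.006). *Cited1* had 5978 and 9802 against 10777 and 12223 in low CHIR, so its level after removal in high CHIR stayed under every low CHIR library (difference of effects 4.53, SE 0.63, adjusted p = 0.0044). *Olfml2a* had 118 and 237 against 235 and 366 in low CHIR, under both *Ctnnb1*-guide libraries of high CHIR (6.99, SE 0.79, adjusted p = 0.0013). *Meox2* (3.84), *Tmem100* (3.64), *Osr1* (3.39), *Bmper* (3.58), *Robo2* (2.31), *Nid2* (2.38) and *Etv1* (1.48) also differed.

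Of the effects more negative in high CHIR, that of *Htr3a* was the largest (-4.50, SE 0.64, adjusted p = 0.0053). It had 5.96 and 2.16 normalized counts with the GFP guide in low CHIR and 17.4 and 15.6 with the *Ctnnb1* guides, so the order of the groups was the reverse of that in high CHIR. *Gadd45g*, a stress-response gene (-2.50, SE 0.46, adjusted p = 0.026), and *Bmf*, a promoter of cell death (-2.55, SE 0.47, adjusted p = 0.026), had the same pattern. *Gadd45g* had 137 and 129 against 192 and 212 in low CHIR, and 2716 and 2614 against 757 and 673 in high CHIR. *Rasgef1b* (-2.09), *Lpar1*, the receptor of lysophosphatidic acid (-1.84), and *Lrp4* (-1.84) followed. *Wnt4* (0.52 in low and -2.43 in high CHIR), *Jag1* (-0.71 and -2.22) and *Lef1* (-0.40 and -2.62) were not called for the difference.

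**Figure D4:**
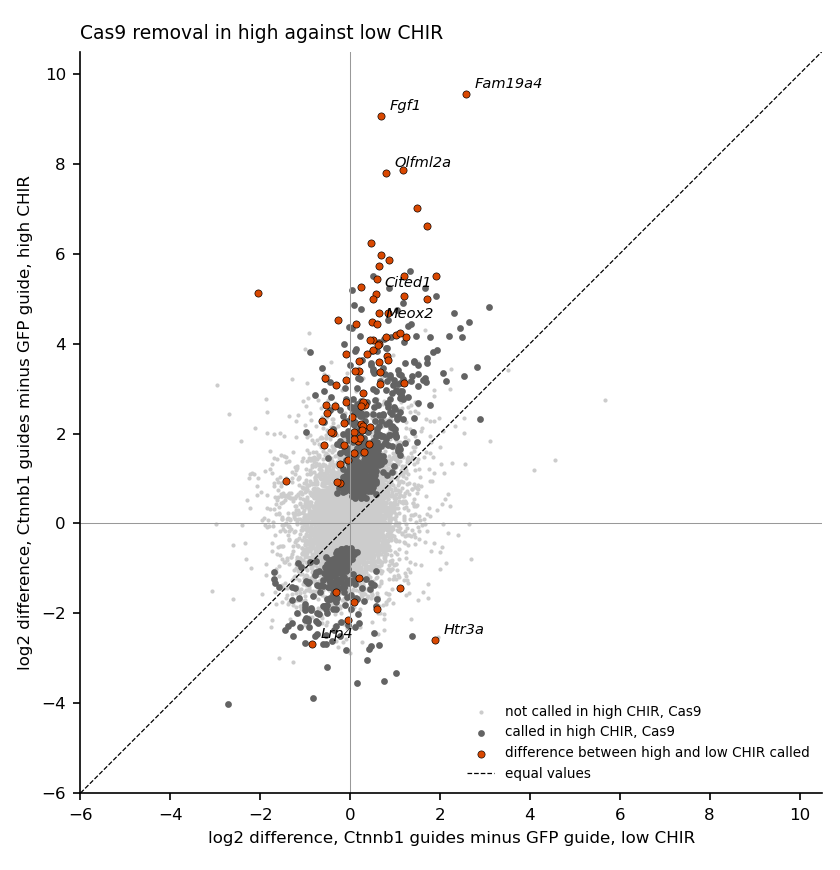
Log2 difference between the *Ctnnb1* guides and the GFP guide in low CHIR (x axis) and in high CHIR (y axis), 1 point per gene over 16780 genes. Dark points are genes called in high CHIR, orange points the 87 genes whose 2 effects differed, and the dashed line marks equal values. Most orange points lie high above the line and near 0 on the x axis.

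β-catenin was also removed with Cre, in NPCs homozygous for a conditional allele (label B-catenin_c_c) given Cre mRNA and compared with Cre-negative NPCs, on the same schedule and with no library in common. There 990 genes rose (5.90%) and 462 fell (2.75%). With any 1 of the 4 Cre libraries in high CHIR left out the counts were from 620 (without Cre positive replicate 2) to 689 (without Cre positive replicate 1) and from 196 (without Cre negative replicate 1) to 295 (without Cre positive replicate 2), and edgeR, with 1 Cre-positive library, called 673 and 241. The shares that follow use 990 and 462 and change with these counts. Of the 578 genes that rose with Cas9, 453 rose with Cre (78.4% of the Cas9 genes and 45.8% of the Cre genes), and of the 276 that fell, 173 fell with Cre (62.7% and 37.4%). None was called in opposite directions. In sign alone 575 of 578 (99.5%, against 48.6% of all genes tested) and 272 of 276 (98.6%, against 51.3%) went the same way. The median differences of these genes were 1.75 with Cas9 and 1.80 with Cre for the increases, and -1.15 and -1.09 for the decreases.

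Tested directly, limma called no gene (0%) whose effect differed between the 2 ways of removal, against 546 at an unadjusted p under 0.05. On reads, with 1 library in the Cre-positive group, edgeR called none, against 818, and DESeq2 called 8. *Ctnnb1* had 2254 and 2583 normalized counts with Cre and 2423 and 2207 without, a difference of 0.06, against -0.89 with Cas9. The count takes in reads from every exon, so it is no measure of the protein lost with Cre either. In the paper's staining, membrane β-catenin protein was reduced with Cre as well as with the guides. *Cited1* (5.12 with Cas9 and 5.49 with Cre), *Fgf1* (9.06 and 7.76), *Lef1* (-2.62 and -3.34) and *Pax2* (-1.87 and -2.55) moved the same way in both. *Six2* was called with Cre (1.30, adjusted p = 0.0294) and not with Cas9 (0.44), and its difference of effects had an adjusted p of 1. Of 17 interferon response genes tested 11 rose with Cre, and none with Cas9. *Oas1a* had 35.2 and 17.2 normalized counts with the GFP guide and 54.3 and 24.7 with the *Ctnnb1* guides, and 5.51 and 2.07 without Cre against 240 and 120 with it. The Cas9 groups overlapped and the Cre groups did not, and the effects differed by -4.70 (SE 0.88, adjusted p = 0.405). *Isg15* gave differences of 0.05 with Cas9 and 4.30 with Cre (difference of effects -4.25, adjusted p = 0.774).

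**Figure D5:**
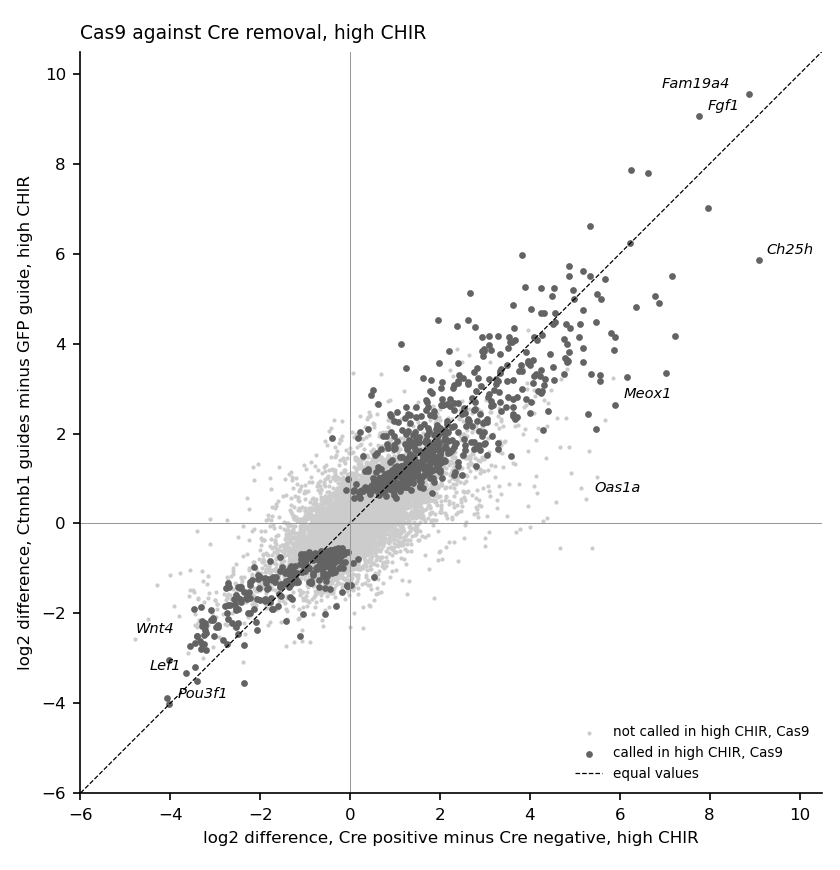
Log2 difference on Cre removal (x axis) and on Cas9 removal (y axis) in high CHIR, 1 point per gene over 16780 genes, with genes called on Cas9 removal in dark gray and the dashed line at equal values. Of the genes that rose 575 of 578 lie right of 0 and of those that fell 272 of 276 lie left of it, and *Oas1a* lies far to the right near 0 on the y axis.

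Markers of other cells were read in the same libraries. The NPCs were enriched from digested kidneys, with a suspension mostly from the outer nephrogenic zone, by depletion with antibodies to CD105, CD140, Ter119 and CD326, which are found on endothelium, stroma, red cells and epithelium. The NPC markers *Six2*, *Eya1*, *Wt1* and *Sall1* were well expressed in all 4 libraries, although *Sall1* fell. The other NPC markers also differed between the groups, as given above. *Cited1*, *Meox1* and *Osr1* were low with the GFP guide and rose with the *Ctnnb1* guides, and *Pax2* fell. Of 11 stroma markers tested none was called by limma, edgeR or DESeq2 and 1 had an unadjusted p under 0.05, with a median difference of 0.61. Their summed counts were 17436 and 5834 with the GFP guide and 23334 and 14395 with the *Ctnnb1* guides, so replicate 1 was above replicate 2 in both groups and the groups overlapped. In low CHIR they were 25176 and 10214 against 31063 and 15550. Within each replicate number the sum was higher with the *Ctnnb1* guides, in high and in low CHIR. *Pdgfrb*, a pericyte receptor, had 1796 and 520 against 3315 and 2640 (1.61, adjusted p = 0.146). In bulk RNA more cells of a type and more RNA per cell cannot be told apart, and the part of stroma in the genes that rose was not tested.

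Endothelial markers summed to 544 and 442 normalized counts in the controls and to 2026 and 1595 after removal, and in low CHIR to 1046 and 938 against 2205 and 2322. Only 3 of 10 markers passed the filter on low counts, of which 2 rose and all 3 had a positive difference. *Emcn* (endomucin) had 121 and 55.5 against 1041 and 617 (3.27, SE 0.41, adjusted p = 0.000364) and *Plvap*, a protein of endothelial pores, had 122 and 65.1 against 493 and 513 (2.48, SE 0.44, adjusted p = 0.00488), the latter not called without *Ctnnb1* replicate 2 (2.45) or GFP replicate 2 (2.03). *Egfl7* had 242 and 297 against 444 and 451 (0.74, adjusted p = 0.369). The other 7 were low in all 4 libraries and went different ways. *Pecam1* had 8.99 and 6.70 against 0.92 and 1.76, *Cdh5* had 3.0 and 0.96 against 0.92 and 0.00, and *Tek* had 21.7 and 8.61 against 0.00 and 0.88. *Kdr* had 3.0 and 0.00 against 12.0 and 7.04, *Flt1* and *Esam* overlapped between the groups, and *Tie1* had no read in any of the 4. The part of endothelial cells in the genes that rose was not tested. Ureteric markers summed to 763 and 849 against 637 and 507, with 1 of the 2 tested at an unadjusted p under 0.05 and none called by limma, edgeR or DESeq2. Blood markers summed to between 49.0 and 79.0, with none of 3 called by these tools or at an unadjusted p under 0.05.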

How the data were processed

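The 36 libraries of the study were made from SMARTer cDNA and sequenced as paired-end reads of 150 bases. The authors aligned them with STAR 2.5.1a1 to GRCm38 and GRCh38 combined, counted reads on Ensembl genes with featureCounts 1.4.6-p52, and normalized with DESeq2. The deposited signal is therefore a normalized count (reads over 1 size factor per library), given for 26863 genes in the table used. Authors' tables of fold changes and p-values were not used, nor were 70 columns of other tables.

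Here, log2(normalized count + 1) was fitted with limma 3.58.1 (R 4.3.3, trend in the variance) for all 16 libraries in 8 groups of 2, without covariates, over 16780 genes whose mean was 10 or more. Adjustment was by Benjamini-Hochberg, with thresholds of 0.05 and of 0.5 on the log2 scale. Differences between effects were contrasts of the same fit. Whole reads were recovered as multiples of each library's smallest step (100% of values within 0.1 of a whole read) in 14 of the 16 libraries. In the GFP sgRNA replicate 1 in low CHIR and the Cre positive replicate 1 in high CHIR a read is worth about 1 normalized count, so these were left out of the alternatives on reads, edgeR 4.0.16 and DESeq2 1.42.0, which then hold 1 library in those groups. Of these steps, only the main comparison with limma, edgeR and DESeq2 was tested on simulated libraries, with known fold changes put in.

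Genes were named by list membership (34 lists, S-phase and G2-M genes from Seurat 5.3.0), as the 12 largest changes each way among called genes whose mean was 50 normalized counts or more and groups that do not overlap, and as the 6 largest differences of effects each way by the same rule. Values of uncalled genes beyond these were chosen from the lists after their values were seen. The comparison and the lists were chosen with earlier results of these data known. Gene places are from GENCODE vM21. Symbols came for 99.8% of genes. Intervals and floors cover counting error only, since reads carry no molecular identifiers. Alternatives were other pseudocounts, filters, scaling, tools, sets of libraries, thresholds, a replicate block and leaving out each library.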

Additional observations from a re-analysis of the deposited data

Results flagged for a closer look

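The effect of the *Ctnnb1* guides differed between high and low CHIR for 79 genes with a more positive and 8 with a more negative difference of effects, by the test of the difference itself. Among the named genes, the positive differences on the log2 scale were those of *Fgf1* (8.37), *Olfml2a* (6.99), *Fam19a4* (6.97), *Slc26a7* (6.70), *Rgs4* (5.52), *Steap4* (5.27), *Ch25h* (4.99), *Nxph1* (4.91), *Dkk2* (4.84), *Cited1* (4.53), *Tgtp1* (4.30), *Meox2* (3.84), *Tmem100* (3.64), *Upp1* (3.60), *Bmper* (3.58), *Osr1* (3.39), *Gfra2* (2.39), *Nid2* (2.38), *Robo2* (2.31), *Efnb1* (1.66) and *Etv1* (1.48). The negative ones were those of *Htr3a* (-4.50), *Bmf* (-2.55), *Gadd45g* (-2.50), *Rasgef1b* (-2.09), *Lpar1* (-1.84) and *Lrp4* (-1.84). *Gfra2*, a coreceptor of the Gdnf family, was the 1 gene of the 79 that was not called in high CHIR. It had 57.7 and 80.4 normalized counts with the GFP guide and 121 and 145 with the *Ctnnb1* guides in high CHIR, and 401 and 376 against 177 and 115 in low CHIR, so its order was reversed between the 2 media. *Steap4*, a metalloreductase, had 1 read in both controls against 182 in high CHIR (ratio 195, 95% exact interval 34.5 to 7740, counting error only). Groups of 2 libraries were not tested for outliers.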

How the results depend on the processing

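Of the 101 called genes named, 95 to 101 kept their call under each other pseudocount, filter, scaling, tool or set of libraries except the filter at a mean of 50, which tested 94 of them and kept all 94. With 1 library left out, 44 to 65 kept it. No called gene reversed under any of these. The number of genes that rose was 935 with 4 libraries in the fit (main value 578) and from 176 to 355 with 1 library left out. The number that fell was 793 with 4 libraries, 434 with the 8 Cas9 libraries, 534 with DESeq2, 161 at a log2 threshold of 1 (main value 276) and from 28 to 84 with 1 library left out. Genes called for the difference between high and low CHIR were 166 with DESeq2 (main value 87) and from 29 (without *Ctnnb1* replicate 2 in high CHIR) to 61 with 1 library left out, and were lower whichever of the 8 it was, and for that between Cas9 and Cre they were 8 with DESeq2 (main value 0) and from 0 to 1 with 1 library left out, an alternative chosen after seeing the data, the 1 being without Cre negative replicate 2. With a library left out, the other of its group was assumed to vary like the other groups. Of genes that were not called, with 1 library left out *Ccnd1* ranged from -0.11 to 0.025 (reversed without GFP replicate 1), *Isg15* from -1.02 to 1.11 (reversed without *Ctnnb1* replicate 1, and at -0.72 without GFP replicate 2) and *Oas1a* from -0.0028 to 1.11 (reversed without *Ctnnb1* replicate 1). Apart from the fits with fewer libraries and the higher threshold, the cause of these changes was not tested. Depth limits *Fam19a4*, *Steap4*, *Slc26a7*, *Wnt2* and *Igf1*, which had 0 to 3 reads in both controls together, and *Fgf1*, with no read in 1 control.

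With the replicate number as a block, 1333 genes rose and 800 fell, 235 differed between high and low CHIR and 20 between Cas9 and Cre. On removal in low CHIR 16 rose and 5 fell, and on Cre removal 1718 and 921. The block also called 4 of 11 stroma markers higher, 1 of 2 ureteric markers lower, and 7 of 16 integrins higher and 2 lower. The labels give only a number, and the 2 pairs of a comparison are too few to show pairing. The deviations of same-numbered libraries from their group means correlated across genes by 0.297 for the groups compared and by 0.116 to 0.491 over the 6 pairs of Cas9 groups.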
